A study of Mus musculus with 4 samples.

Results

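Ligation products that joined a captured region of chromosome 1 with a captured region of chromosome 15 were examined in 4 tiled Capture-C maps of mouse embryonic stem cells (mESCs). A member was a pair of 6.4 kb bins with 1 bin between 72.083 and 75.654 Mb of chromosome 1 and the other between 10.278 and 13.197 Mb of chromosome 15, in mouse genome mm9. This gave 254448 bin pairs of the 913276 that the maps can hold for their regions on chromosomes 1, 15 and X, and 995 to 1836 of them held reads in a given library. The members were chosen by position and not by their values. In tiled Capture-C, formaldehyde-crosslinked chromatin is cut, religated and enriched for chosen regions with tiled oligonucleotides, so that a read pair reports a pair of sites that were ligated. The study used these cells to ask how CTCF sites and cohesin act on contacts between a pair of engineered loci on chromosome 15.

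All 4 libraries came from E14 mESCs in which a pair of endogenous CTCF sites around the chromosome 15 locus had been deleted, both alleles of Rad21 carried a HaloTag-FKBP degradation tag, and arrays of TetO and LacO operators had been placed on 1 allele of chromosome 15. Each line is a single clone. Line 1B1 carried cassettes of 3 CTCF sites (3xCTCF) beside the arrays. Lines 1A2 and 1F4 had lost these cassettes, and 1F4 kept the promoters of the resistance genes that the other lines lacked. The 4th library, here called 1B1 -cohesin, was made from 1B1 cells given 500 nM dTag-13 for 2 h, which sends the RAD21 subunit of cohesin to degradation. The first 3 libraries were not treated. Each group had 1 library, so no difference below has a replicate check, and every p-value compares libraries and not conditions. Read recovery gave a depth of 3214144 pairs for 1A2, 4089968 for 1F4, 3234581 for 1B1 and 3622612 for 1B1 -cohesin.

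Interphase chromosomes fill territories of their own, so that ligation between chromosomes is rare beside ligation within one. Where chromosomes do meet, stretches of active and gene-rich chromatin (the A compartment) tend to lie with other active stretches, and inactive stretches (the B compartment) with other inactive ones. Cohesin extrudes loops along a single DNA molecule and CTCF halts it, so loops of this kind join sites on the same chromosome, while compartments form without extrusion. A read pair between chromosomes can also come from ligation of DNA that was not close in the nucleus, and the maps cannot tell these apart.

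The proximal part of the chromosome 1 region holds Xrcc5, which encodes a subunit of the Ku complex of DNA end joining, and the genes of the insulin-like growth factor binding proteins Igfbp2 and Igfbp5. A stretch of 998.4 kb that follows (72.928 to 73.926 Mb, 156 bins) has 1 protein-coding start site, that of Tnp1, a nuclear protein of sperm, and is called gene-poor below. The distal 1408 kb (74.246 to 75.654 Mb, 220 bins) has 50 protein-coding start sites and is called gene-dense. It includes Vil1, an actin-bundling protein of microvilli, the Wnt ligands Wnt6 and Wnt10a, the hedgehog ligand Ihh, and Des, the intermediate filament protein of muscle. The chromosome 15 region holds Rad1, a subunit of a DNA damage checkpoint clamp, the racemase Amacr, the threonyl-tRNA synthetase Tars, the RNA-binding protein Zfr, the Golgi protein Golph3, the microRNA-processing nuclease Drosha and the cadherin Cdh6. The sites of the arrays are shown first, because they place the engineered domain inside this region. The LacO site was the guide match at chr15:11496892-11496911 (bin 11494401 to 11500800) and the TetO site that at chr15:11647356-11647375 (bin 11641601 to 11648000). Both matches were on the plus strand and between genes. They are printed 5′ to 3′ with 40 bases on each side in lower case, and capitals mark the guide match with its PAM (AGG for LacO, TGG for TetO).
LacO site: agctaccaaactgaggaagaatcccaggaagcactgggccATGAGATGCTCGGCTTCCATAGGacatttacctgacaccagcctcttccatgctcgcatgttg
TetO site: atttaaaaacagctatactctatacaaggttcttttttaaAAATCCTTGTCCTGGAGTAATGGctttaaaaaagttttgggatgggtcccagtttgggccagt

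The other sequences shown are from the recurring bin pair with the longest close match, described with the recurring pairs below. The match lies in an intron of Plcd4 (chr1:74603886-74604078, plus strand) and an intron of Zfr (chr15:12102921-12103113, minus strand), and capitals mark the 7 of 193 aligned positions that differ. The reads are placed only by 6.4 kb bin, so where in the bins they were ligated is not known.
Plcd4 intron: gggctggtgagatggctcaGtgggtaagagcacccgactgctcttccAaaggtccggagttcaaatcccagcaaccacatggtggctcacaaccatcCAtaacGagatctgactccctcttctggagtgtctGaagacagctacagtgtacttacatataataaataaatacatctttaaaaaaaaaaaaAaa
Zfr intron: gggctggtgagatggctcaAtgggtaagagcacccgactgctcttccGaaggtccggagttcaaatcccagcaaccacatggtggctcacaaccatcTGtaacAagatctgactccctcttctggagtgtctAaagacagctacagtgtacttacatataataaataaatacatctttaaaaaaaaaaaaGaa

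Reads between chromosomes 1 and 15 were rare in all 4 libraries and took their largest share in 1B1 -cohesin. The libraries held 1047 such reads for 1A2, 1180 for 1F4, 1347 for 1B1 and 1888 for 1B1 -cohesin. As a share of all reads this was 0.0326% for 1A2 (95% exact binomial interval 0.0306 to 0.0346), 0.0289% for 1F4 (0.0272 to 0.0305), 0.0416% for 1B1 (0.0394 to 0.0439) and 0.0521% for 1B1 -cohesin (0.0498 to 0.0545). The intervals do not overlap, and the untreated lines differ among themselves as well. All intervals here cover counting error only, because each group had 1 library. The sources used here mention no molecular identifiers on the reads. Between 93.6% and 96.4% of these reads were alone in their bin pair, and therefore the pattern was read from sums over many bins.

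The share was 1.25 times as high in 1B1 -cohesin as in untreated 1B1 (95% interval 1.17 to 1.34, two-sided Fisher's exact test, adjusted p = 4.13e-10 over 6 pairs of libraries). It was 1.6 times that of 1A2 (adjusted exact p = 7.00e-35) and 1.81 times that of 1F4 (adjusted exact p = 4.17e-58). Among untreated libraries, 1B1 was 1.28 times 1A2 (adjusted exact p = 2.75e-09) and 1.44 times 1F4 (adjusted exact p = 7.09e-20), and 1F4 was 0.886 times 1A2 (adjusted exact p = 0.00451). Untreated clones thus differed from each other as well, and the intervals of the step from 1B1 to 1B1 -cohesin and of that from 1A2 to 1B1 overlap. The other chromosome pairs moved alongside, with shares in 1B1 -cohesin 1.19 times (chromosomes 1 and X) and 1.16 times (chromosomes 15 and X) those in 1B1. The chromosome 1 and 15 reads made up 56.4% of interchromosomal reads for 1A2, 57.7% for 1F4, 57.7% for 1B1 and 59.2% for 1B1 -cohesin, and no pair of libraries passed the test of this makeup (exact test, adjusted p from 0.349 to 1). The denominator mattered, because fewer of the reads within the chromosome 1 and 15 regions spanned 100 kb or more in 1B1 -cohesin (23.2%) than in 1A2 (31.0%), 1F4 (29.1%) and 1B1 (34.1%). Relative to those long-range reads alone, 1B1 -cohesin was 1.85 times 1B1, while 1B1 was 1.16 times 1A2 and 1.23 times 1F4. The difference between 1F4 and 1A2 then no longer passed the test (0.944 times, adjusted exact p = 0.18).

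**Figure D1:**
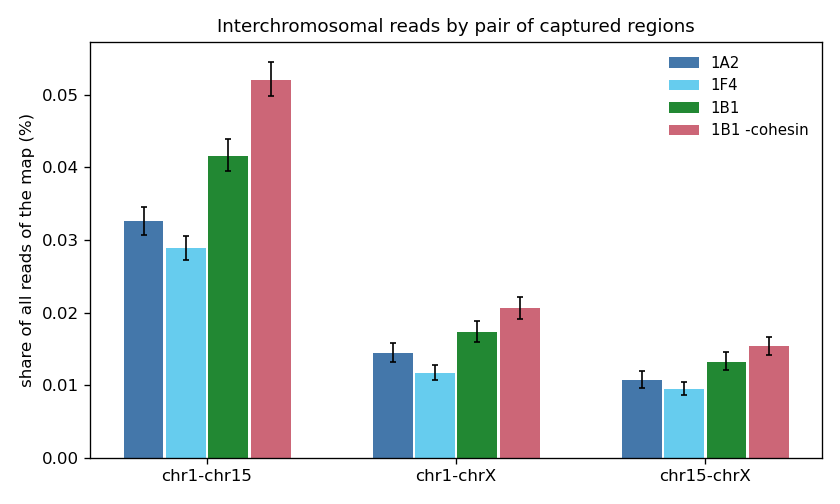
Reads between each pair of captured regions as a percent of all reads of a library, by library, with 95% exact binomial intervals. The chromosome 1 and 15 points run from 0.0289% in 1F4 to 0.0521% in 1B1 -cohesin and lie above both pairs with chromosome X, whose order across libraries is the same.

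Per pair of bins, chromosomes 1 and 15 were ligated more often than either was with chromosome X. Each bin pair was given an expected weight from the balancing factors of its bins, which stand for how well a bin is captured and mapped, and a rate is the reads over that weight. The rate was 1.51 times that of chromosomes 1 and X for 1A2, 1.67 times for 1F4, 1.59 times for 1B1 and 1.66 times for 1B1 -cohesin. Against chromosomes 15 and X it was 1.66, 1.68, 1.70 and 1.82 times in the same order. E14 cells are male by karyotype and carry a single X chromosome, and the part of copy number in these ratios was not tested. Sites on the same chromosome 1.5 Mb or more apart were ligated at 129 to 186 times the rate between chromosomes 1 and 15.

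Each region was next split into stretches of like contact from the reads within its own chromosome, which the chromosome 1 and 15 reads did not enter. This split was not planned and was added after earlier results of these data were known. Windows of 64 kb were signed by the first eigenvector of the correlation matrix of the map within the region, summed over the 4 libraries, with the sign set so that positive windows are richer in G and C. This is the measure by which A and B compartments are called, although here a region holds only 56 windows on chromosome 1 and 46 on chromosome 15. On chromosome 1, 29 windows were positive and held 58 protein-coding start sites at a mean GC content of 47.6%, whereas 27 were negative with 7 start sites and 43.6%. On chromosome 15, 21 windows were positive with 13 start sites and 44.5% GC, and 25 were negative with 9 start sites and 41.7%. The positive stretches were therefore GC-richer in both regions, by construction of the sign, and held most start sites on chromosome 1.

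The positive windows formed few long runs. On chromosome 1 they were 72211201 to 72403200, with Mreg, Pecr, Tmem169 and Xrcc5, and 73939201 to 75603200, which runs from Tns1 across Vil1, Wnt6, Ihh and Des. On chromosome 15 they were 10406401 to 10662400 (Brix1, Rad1, Ttc23l and Rai14), the window of Tars (11302401 to 11366400), and 1024 kb from 11878401 to 12902400, with Sub1, Zfr, Mtmr12, Golph3, Pdzd2 and Drosha. The gene-dense interval was positive in 212 of its 220 bins and the gene-poor one in 0 of 156. The map of a single library gave the same sign in 54 (1A2), 55 (1F4), 54 (1B1) and 50 (1B1 -cohesin) of the 56 chromosome 1 windows, and in 44 to 45 of the 46 chromosome 15 windows.

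Positive windows of chromosome 1 were ligated to positive windows of chromosome 15 more often than their weights gave in every library. They shared 355 reads for 1A2, 346 for 1F4, 444 for 1B1 and 738 for 1B1 -cohesin. The observed/expected value was 1.34 for 1A2 (95% Poisson interval 1.203 to 1.49), 1.15 for 1F4 (1.03 to 1.28), 1.29 for 1B1 (1.18 to 1.42) and 1.52 for 1B1 -cohesin (1.41 to 1.64). All 4 intervals lie above 1. Positive windows of chromosome 1 with negative windows of chromosome 15 gave 0.815, 0.935, 0.821 and 0.713 in the same order, the lowest of the 4 classes in 1A2, 1B1 and 1B1 -cohesin. Negative windows of chromosome 1 gave 0.876, 1.03, 0.941 and 0.872 with positive windows of chromosome 15, and 0.9702, 0.891, 0.946 and 0.889 with negative ones. The excess was thus in the joining of positive with positive windows, and negative windows showed none with each other.

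Windows of like sign exceeded windows of unlike sign 1.37-fold for 1A2 (1.21 to 1.55), 1.05-fold for 1F4 (0.933 to 1.18), 1.28-fold for 1B1 (1.15 to 1.43) and 1.55-fold for 1B1 -cohesin (1.41 to 1.70). The interval of 1F4 holds 1 with these windows, and with windows of 32 kb it lay above 1 (1.14, 1.02 to 1.28). Against the remaining chromosome 1 and 15 reads, the reads between positive windows took a larger part in 1B1 -cohesin than in 1B1 (1.18 times the observed/expected value, Fisher's exact test on the reads without weights, adjusted p = 0.00113), than in 1A2 (1.14 times, adjusted exact p = 0.0119) and than in 1F4 (1.32 times, adjusted exact p = 2.06e-07). An untreated pair differed too, with 1F4 at 0.859 times 1A2 (adjusted exact p = 0.0334), while 1B1 passed the test neither against 1A2 (0.967 times, adjusted exact p = 0.631) nor against 1F4 (1.13 times, adjusted exact p = 0.0635). With windows of 32 kb the differences of 1B1 -cohesin from 1A2 and of 1F4 from 1A2 no longer passed the test (adjusted exact p = 0.102 and 0.0621). With weights taken from reads at 100 kb or more within each region, 1B1 -cohesin over 1A2 was 1.07 with an interval that holds 1 (0.963 to 1.18). Between positive windows of chromosomes 1 and X the observed/expected value was 1.23 for 1A2, 1.15 for 1F4 (0.963 to 1.36), 1.27 for 1B1 and 1.47 for 1B1 -cohesin, and like over unlike windows was 1.04, 0.967, 1.06 and 1.19. A single bin pair, Slc23a3 in a positive window with a bin in a negative window of chromosome X, held 55, 49, 42 and 51 of these reads, and without it like over unlike windows was 1.37 for 1A2 (1.12 to 1.68), 1.21 for 1F4 (0.997 to 1.47), 1.26 for 1B1 (1.05 to 1.503) and 1.40 for 1B1 -cohesin (1.202 to 1.63), an alternative chosen after seeing the data. Between positive windows of chromosomes 15 and X the value was 1.43 for 1A2, 1.22 for 1F4, 1.18 for 1B1 (0.979 to 1.42) and 1.48 for 1B1 -cohesin, and like over unlike windows was 1.26, 1.36, 1.53 and 1.56, each with an interval above 1. For chromosomes 1 and 15 the bin pair with the most reads was Igfbp5 with Cdh6, both in negative windows. Without it, their like over unlike ratio was 1.33, 1.03, 1.26 and 1.53 in the same order. Their observed/expected value between positive windows was then 1.36, 1.16, 1.31 and 1.53. This alternative, too, was chosen after seeing the data.

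**Figure D2:**
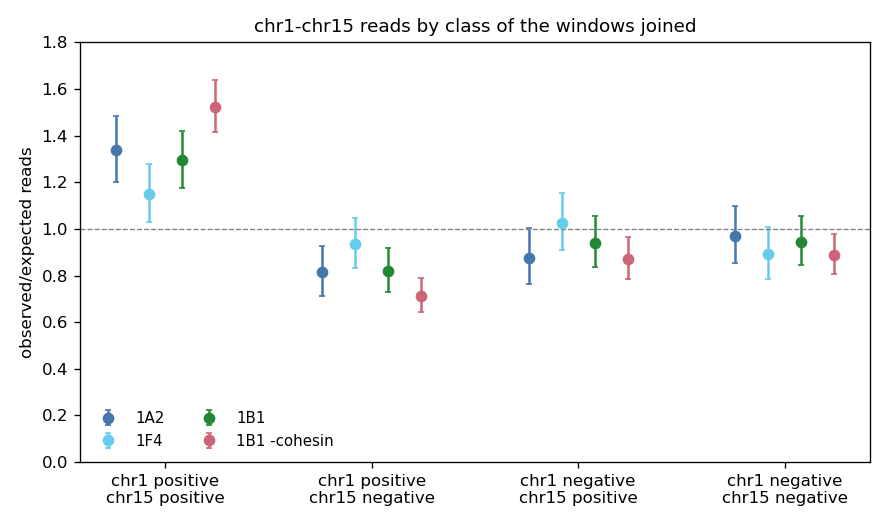
Observed/expected reads between classes of 64 kb windows of chromosomes 1 and 15 in each library, with 95% Poisson intervals and a line at 1. The positive with positive class lies above 1 in all 4 libraries, from 1.15 in 1F4 to 1.52 in 1B1 -cohesin.

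The gene-dense interval of chromosome 1 was ligated to the chromosome 15 region more often than the gene-poor one in 3 of the 4 libraries by interval. The gene-dense interval held 415 reads for 1A2, 437 for 1F4, 525 for 1B1 and 813 for 1B1 -cohesin, and the gene-poor one held 248, 291, 336 and 417. Per weight the gene-dense interval exceeded the gene-poor one 1.27-fold for 1A2 (1.08 to 1.49), 1.13-fold for 1F4 (0.968 to 1.31), 1.18-fold for 1B1 (1.03 to 1.36) and 1.40-fold for 1B1 -cohesin (1.24 to 1.57). The 1F4 interval holds 1, and with every bin pair weighted equally that of 1B1 does too (1.12, 0.978 to 1.29). The gene-dense interval itself was near its expected value, at 1.03, 0.959, 1.01 and 1.09, and the gene-poor one was below it, at 0.811, 0.852, 0.856 and 0.783. The contrast therefore lay mostly in a deficit of the gene-poor stretch around Tnp1. Between libraries the ratio was 1.24 times as high in 1B1 -cohesin as in 1F4 (adjusted exact p = 0.0446), and 1.18 times as high as in 1B1, which did not pass after adjustment (exact p = 0.0182, adjusted p = 0.0547). These differences depended on the weights. With weights from reads at 100 kb or more they were 1.002 (0.829 to 1.21) and 1.007 (0.8402 to 1.21), and with mean balanced values 1B1 -cohesin was at 0.948 times 1B1. Set against all other bins of chromosome 1, the gene-dense interval gave 1.05 for 1A2 (0.922 to 1.19) and 0.935 for 1F4 (0.829 to 1.05). It gave 1.02 for 1B1 (0.911 to 1.14) and 1.16 for 1B1 -cohesin (1.06 to 1.28). The value of 1B1 -cohesin then passed the test against 1F4 (1.24 times, adjusted exact p = 0.00609). It did not pass against 1B1 (1.14 times, adjusted exact p = 0.0615) or 1A2 (1.11 times, adjusted exact p = 0.145). With the mean of the balanced values in place of read rates, the 1A2 ratio turned to 0.830.

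To place these reads, chromosome 1 was divided into 7 blocks of 505.6 to 512 kb and chromosome 15 into 6 blocks of 486.4 kb, numbered from the proximal end. Chromosome 1 blocks 3 and 4 have no protein-coding start site, and blocks 5 (Tns1 to Bcs1l), 6 (Rnf25, Wnt6 and Ihh) and 7 (Dnpep, Des and Speg) have 18, 16 and 20. Of the 42 block pairs, the 95% interval of observed/expected lay above 1 for 4 for 1A2, 2 for 1F4, 5 for 1B1 and 6 for 1B1 -cohesin. Over all 94 interchromosomal block pairs the shares above 1 were 6.38%, 3.19%, 8.51% and 13.8%. The interval lay below 1 for 2, 3, 7 and 10 of the 42, against 6.38%, 6.38%, 10.6% and 18.1% of all 94. With blocks of about 0.25 Mb, 9 of 168 block pairs were above 1 in 1B1 -cohesin, against 10 in 1A2 and 11 in 1B1. The order of the libraries in this count thus depended on the block size. No background share was taken at this size. Across the 42 block pairs the observed/expected values of libraries correlated with Pearson's r from 0.33 to 0.55. This is a description over block pairs that share bins. The correlation with the summed GC content of the blocks was 0.33 for 1A2, 0.28 for 1F4, 0.26 for 1B1 and 0.45 for 1B1 -cohesin, and with their number of start sites 0.10, -0.01, 0.11 and 0.27. With the number of GATC sites, which the MboI digest cuts, it was negative, at -0.20 for 1A2, -0.41 for 1F4, -0.31 for 1B1 and -0.40 for 1B1 -cohesin.

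**Figure D3:**
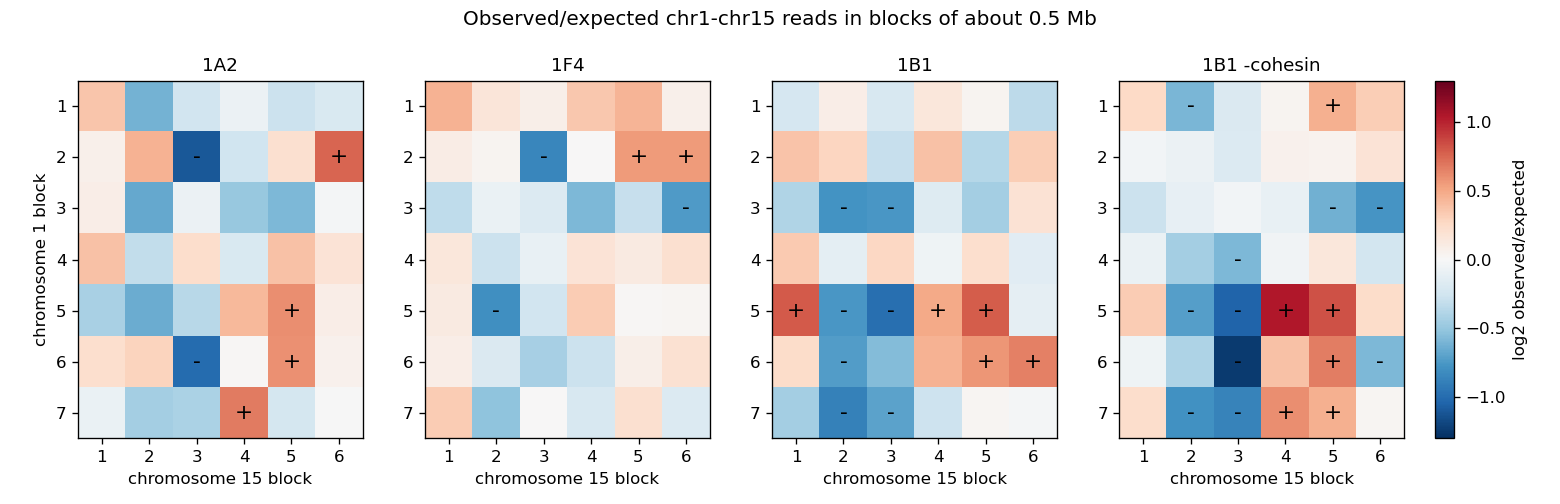
Observed/expected reads for the 7 chromosome 1 blocks against the 6 chromosome 15 blocks in each library, on a log2 colour scale. A plus sign marks a block pair whose interval lies above 1, and a minus sign a block pair whose interval lies below 1. Blocks 5 and 6 of chromosome 1 are above 1 with chromosome 15 block 5 in all 4 maps, and block 5 is below 1 with block 2.

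Of the 42 block pairs, 5 were above 1 and 10 below 1 in all 4 libraries. Over all 94 interchromosomal block pairs these shares were 11.7% and 27.7%, so that the counts of chromosomes 1 and 15 lie near the background. Among those named by rank in the untreated libraries, chromosome 1 block 5 with chromosome 15 block 5 (Golph3 and the PDZ scaffold Pdzd2) had 40 reads for 1A2, 30 for 1F4, 59 for 1B1 and 84 for 1B1 -cohesin. Its observed/expected values were 1.52, 1.01, 1.72 and 1.77, so that 1F4 was at its expected value and the others were above it. Block 6 with block 5 gave 1.51, 1.05, 1.49 and 1.58 on 39, 31, 50 and 74 reads, again with 1F4 the lowest. The highest value over the untreated libraries belonged to block 2 (Igfbp2, Igfbp5 and Tnp1) with block 6 (Drosha and Cdh6), at 1.69, 1.47, 1.25 and 1.13 on 42, 41, 40 and 53 reads. This value rested on 1 bin pair, described with the recurring pairs, without which it was 1.01, 1.08, 0.809 and 0.919, so that 4 block pairs remained above 1 in all libraries. The lowest were block 5 with block 2 (Amacr and the metalloprotease Adamts12), at 0.642, 0.577, 0.593 and 0.608 on 16, 16, 19 and 27 reads, block 2 with block 3, at 0.467, 0.554, 0.810 and 0.881, and block 6 with block 3 (Tars and the arrays), at 0.501, 0.740, 0.678 and 0.423. Block 5 with block 2 varied least between libraries among these.

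The reads of the gene-dense interval were unevenly spread over the chromosome 15 blocks, a comparison chosen after the values were seen. Its observed/expected value with block 4 (Npr3, Sub1, Zfr and Mtmr12) was 1.28 for 1A2, 0.982 for 1F4, 1.21 for 1B1 and 1.68 for 1B1 -cohesin. With block 5 it was 1.25, 1.04, 1.34 and 1.58. With block 3 it was 0.647, 0.854, 0.595 and 0.502, and with block 2 it was 0.913, 0.726, 0.586 and 0.644. Blocks 4 and 5 together exceeded blocks 2 and 3 by 1.62 times for 1A2 (1.27 to 2.08), 1.28 times for 1F4 (1.01 to 1.64), 2.16 times for 1B1 (1.71 to 2.75) and 2.84 times for 1B1 -cohesin (2.34 to 3.46). For the gene-poor interval the same ratio was 1.04, 0.960, 1.18 and 0.904. Because these blocks were chosen from the gene-dense values, the intervals of this ratio describe the pattern and do not test it. In 1F4 the values also changed with the processing. Without the ends of the regions its gene-dense interval held 1 (0.985 to 1.62), and with mean balanced values its gene-poor ratio (1.53) passed its gene-dense one (1.33).

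**Figure D4:**
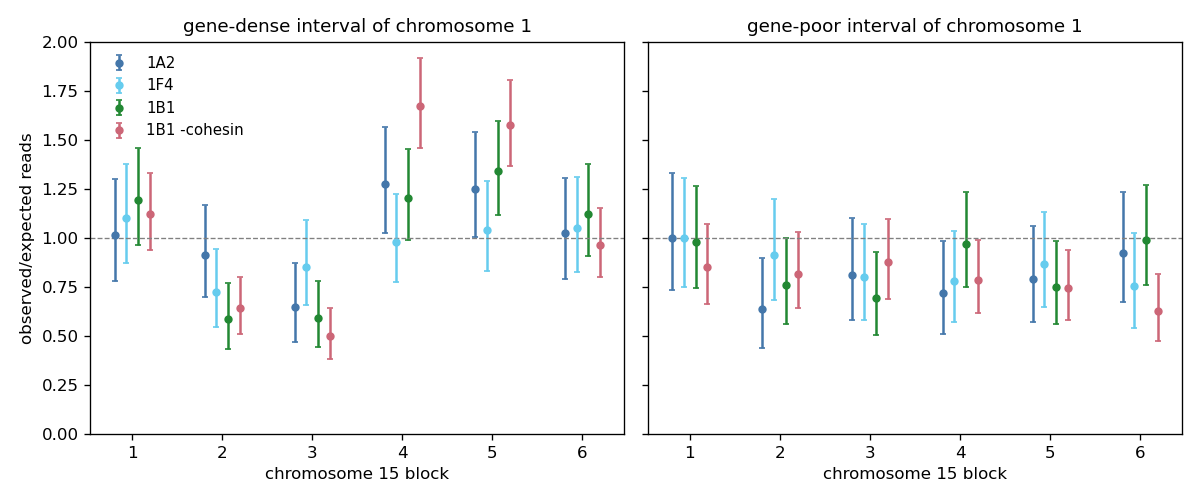
Observed/expected reads of the gene-dense and the gene-poor interval of chromosome 1 with each of the 6 chromosome 15 blocks, by library, with 95% Poisson intervals. In 1B1 -cohesin the gene-dense interval reaches 1.68 and 1.58 with blocks 4 and 5 and falls to 0.502 with block 3.

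Between 1B1 -cohesin and 1B1, the interval of the ratio of observed/expected values lay above 1 for 2 and below 1 for 3 of the 42 block pairs, against 4.26% and 4.26% of all 94. The rises were in block 7 (Des and Speg) with block 4, from 27 to 71 reads (1.84 times, 1.17 to 2.98), and block 5 with block 4, from 47 to 95 reads (1.47 times, 1.02 to 2.13). Block 7 with block 4 was also high in 1A2, at 1.598 on 41 reads, against 0.863 in 1F4, 0.827 in 1B1 and 1.52 in 1B1 -cohesin. The falls were in block 6 with block 6, from 47 to 30 reads (0.423 times), block 3 with block 6, from 37 to 28 reads (0.519 times), and block 4 with block 3, from 40 to 29 reads (0.553 times). Block 6 with block 6 was the 1 block pair with an interval above 1 in a library (1.57 in 1B1) and below 1 in another (0.666 in 1B1 -cohesin). Between untreated libraries, 1F4 over 1A2 gave 0 block pairs up and 1 down (2.13% and 2.13% of all 94), and 1B1 over 1A2 gave 1 up and 2 down (3.19% and 3.19%). These counts are small beside the number of block pairs, and no adjustment for it was made.

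The domain that holds the arrays had fewer reads with chromosome 1 than its weight gave. This domain (11.334 to 11.898 Mb of chromosome 15, 88 bins) includes Npr3, the clearance receptor of natriuretic peptides, and 8 of its bins were in positive windows. It shared 147 reads with chromosome 1 for 1A2, 199 for 1F4, 214 for 1B1 and 284 for 1B1 -cohesin. Observed/expected was 0.728 for 1A2 (0.615 to 0.855), 0.872 for 1F4 (0.755 to 1.00), 0.826 for 1B1 (0.719 to 0.944) and 0.804 for 1B1 -cohesin (0.713 to 0.903). The 4 intervals overlap each other, and that of 1F4 reaches just past 1. Low values were not particular to this domain. Chromosome 15 block 2, which lies outside it, was at 0.868, 0.866, 0.788 and 0.748 with chromosome 1 in the same order. The intervals of block 2 held 1 in 1A2 and 1F4 and lay below 1 in 1B1 and 1B1 -cohesin. With the gene-dense interval alone, the domain was at 0.681 for 1A2, 0.885 for 1F4 (0.6999 to 1.11), 0.661 for 1B1 and 0.689 for 1B1 -cohesin. With the gene-poor interval it was at 0.695, 0.681 and 0.768 in the untreated libraries, each with an interval below 1, and at 1.01 (0.825 to 1.23) in 1B1 -cohesin, where no deficit was seen. The LacO bin had 1, 0, 1 and 3 reads with chromosome 1 and the TetO bin had 2, 5, 3 and 2, in the order 1A2, 1F4, 1B1 and 1B1 -cohesin. The 0 reads of 1F4 allow an observed/expected value of up to 1.52. At 0 to 5 reads per bin, a difference of the array bins between lines with and without 3xCTCF sites was not tested.

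Bins with a protein-coding start site were few, 55 on chromosome 1 and 20 on chromosome 15. Bin pairs with a start site on both sides held 3 reads for 1A2, 7 for 1F4, 5 for 1B1 and 15 for 1B1 -cohesin. Their rate relative to bin pairs with no start site was 0.558, 1.13, 0.729 and 1.54, and the interval held 1 in each library. With every bin pair weighted equally, this rate of bin pairs with a start site on both sides was 1.87 for 1B1 -cohesin with an interval above 1 (1.04 to 3.09), while the interval still held 1 for the other libraries. Bin pairs with a start site on chromosome 15 alone were at 1.40 (1.08 to 1.796) in 1A2, 1.18 in 1F4, 1.12 in 1B1 and 1.29 (1.06 to 1.57) in 1B1 -cohesin. At 3 to 15 reads, an excess between start sites was thus not settled by these maps.

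Of the 5186 bin pairs with a read in any library, 5073 held 1 read over all 4 libraries, and 7 held 8 reads or more. These 7 carried 148 of the 5462 reads (2.71%). The bin of Igfbp5 at chr1:72902401-72908800 with the bin of Cdh6 at chr15:12992001-12998400 had 17 reads for 1A2, 11 for 1F4, 14 for 1B1 and 10 for 1B1 -cohesin, where the weights gave 0.00682 to 0.0128. An intergenic bin at chr1:72787201-72793600 with the bin of Amacr at chr15:10918401-10924800 had 17, 8, 10 and 9. The reads of both pairs recurred in separately made libraries. In 1B1 -cohesin, the library with the most interchromosomal reads, the Igfbp5 pair had its lowest count. The Amacr pair had 9 reads there, below 1A2 and 1B1 and above the 8 of 1F4. The next were a bin of Tns1, which ties integrins to actin, with an intergenic bin at chr15:11456001-11462400 (5, 1, 4 and 4 reads), chr1:75628801-75635200 with Mtmr12 (3, 3, 2 and 3 reads) and the phospholipase gene Plcd4 with Zfr (2, 1, 2 and 5 reads). The remaining pairs were of an intergenic chromosome 1 bin with an intergenic bin at chr15:13107201-13113600 (0, 2, 3 and 4 reads) and of another with a bin of Drosha (1, 1, 1 and 5 reads), so that these and the Plcd4 pair had the most reads in 1B1 -cohesin.

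**Figure D5:**
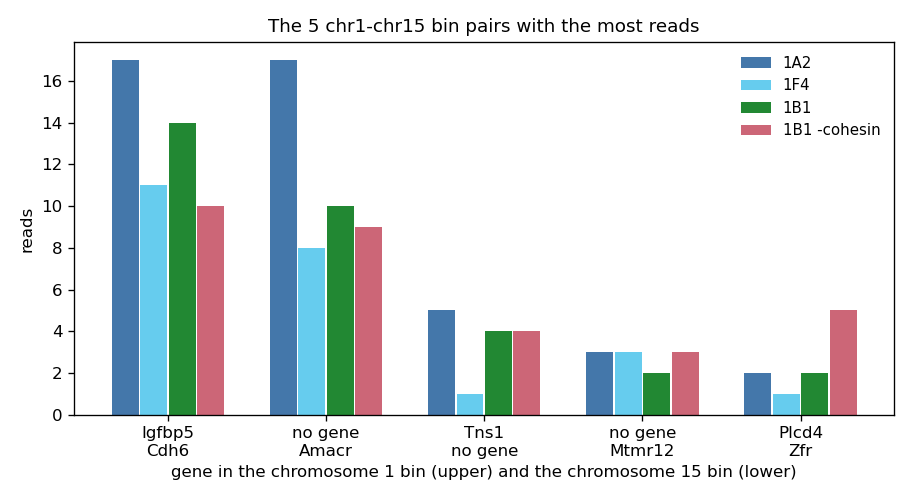
Reads in each library for the chromosome 1 and 15 bin pairs with the most reads over the 4 libraries. Igfbp5 with Cdh6 and the intergenic bin with Amacr hold 8 to 17 reads in each library, and the others hold 5 or fewer.

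Sequence shared between the bins of a recurring pair was looked for with blastn. The Igfbp5 and Cdh6 bins, the Mtmr12 pair and the pair with chr15:13107201-13113600 had no match. The pair of a Tns1 bin with chr15:11456001-11462400 had 26 matches and the Drosha pair had 9. The Amacr pair had 29 matches, the best of 172 aligned positions at 82.0% identity, and the Plcd4 and Zfr pair had 36, including the 193 positions at 96.4% identity printed above. Such matches were common, since 58.1% of bin pairs between 56 evenly spaced chromosome 1 bins and all chromosome 15 bins had at least 1. The part of shared sequence in the recurring reads was not tested.

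A different pattern was seen at the Tns1 bin chr1:74060801-74067200. It had 24 reads with chromosome 15 for 1A2, 35 for 1F4, 23 for 1B1 and 29 for 1B1 -cohesin, spread over 23, 32, 23 and 29 partner bins. Observed/expected was 12.03 for 1A2, 16.2 for 1F4, 8.93 for 1B1 and 7.99 for 1B1 -cohesin. Summed over the libraries it was 10.7, and the next bin of chromosome 1 was at 5.41. The bin was also high with chromosome X, at 12.4, 10.3, 12.1 and 4.87 on 11, 9, 13 and 7 reads, so the excess was not particular to chromosome 15. It had matches to 350 chromosome 15 bins (76.8%), and 79.8% of its 104 partner bins had one. Its reads within chromosome 1 were close to those of the median bin, 5350 against 4822 in 1A2.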

How the data were processed

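The authors mapped read pairs to mm9 with HiC-Pro 2.11.4, kept unique valid pairs within the target regions, counted them in 6.4 kb bins and balanced them with ICE, and the deposited values are this balanced contact signal. Each value is a read number times 1 factor per bin. The factors were solved here, and 100% of values came within 0.05 of a whole read. Bins left out of balancing (1 to 6 on chromosomes 1 and 15, 18 to 20 on chromosome X) had no value. Expected reads are the product of the bin factors, scaled to the reads of the chromosome pair. Intervals are exact (Poisson, binomial for ratios and shares) at 95%, and p-values are from two-sided Fisher's exact tests with Benjamini-Hochberg adjustment over 6 pairs of libraries. Groups were taken from the sample labels. Block pairs were named as the 3 highest and 3 lowest over the untreated libraries. Members and lists were chosen with earlier results of these data known. Gene positions are from GENCODE vM1, and shared sequence was sought with blastn 2.17.0 at an E-value of 1e-05. The methods describe baits for the chromosome 15 region, and how the other regions were captured is not given in the sources used here. Python 3.11.15, numpy 2.4.6, scipy 1.17.1 and pandas 2.3.3 were used, and the steps were tested on simulated data. Alternatives changed the denominator, the weights, the blocks, the bins left out and the window classes.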

Additional observations from a re-analysis of the deposited data

Results flagged for a closer look

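Differences between libraries in the pattern of chromosome 1 and 15 reads passed Fisher's exact test after adjustment in 5 cases. Those between positive windows come from window classes added after earlier results were known. The gene-dense over gene-poor ratio was 1.24 times as high in 1B1 -cohesin as in 1F4. This difference was 1.002 (0.829 to 1.21) with weights from reads at 100 kb or more, and did not pass with bin pairs capped at 1 read. The observed/expected value between positive windows was 1.18 times as high in 1B1 -cohesin as in 1B1, 1.14 times as high as in 1A2 and 1.32 times as high as in 1F4. With weights from reads at 100 kb or more these were 1.12, 1.07 and 1.23, and the interval of the value against 1A2 held 1. Between positive windows, the reported value was 0.859 times as high in 1F4 as in 1A2, both untreated lines without 3xCTCF sites. With 1 library per group, treatment and library preparation cannot be told apart between 1B1 -cohesin and 1B1, which share a clone, and between lines the clone differs as well.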

How the results depend on the processing

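Of 413 alternatives for 73 results, 352 kept the result within its spread and on its side of the threshold, 40 moved it, 14 changed a call and 7 turned a direction. Of all 413, 188 were chosen after seeing the data (those of the window classes and of chromosome 15 blocks 4 and 5 over 2 and 3). In the order 1A2, 1F4, 1B1 and 1B1 -cohesin, the share of chromosome 1 and 15 reads was 0.0364%, 0.0322%, 0.0464% and 0.0585% of reads within both regions, 0.117%, 0.111%, 0.136% and 0.252% of those at 100 kb or more, and 0.0414%, 0.0340%, 0.0458% and 0.0587% of the balanced signal, which put 1B1 -cohesin at 1.42 and 1B1 at 1.11 times 1A2. At 100 kb or more 1F4 was 0.944 times 1A2 (adjusted exact p = 0.18). The gene-dense over gene-poor ratio turned to 0.830 in 1A2 with mean balanced values, and was 0.914 in 1F4, 1.24 in 1B1 and 1.18 in 1B1 -cohesin, so that 1B1 -cohesin was 0.948 times 1B1 and 1.42 times 1A2, 1B1 was 1.49 times 1A2 and 1.36 times 1F4, and 1F4 was 1.10 times 1A2. With equal weights it was 1.12 in 1B1, with an interval that holds 1. With weights from reads at 100 kb or more it was 1.66 for 1A2, 1.502 for 1F4, 1.49 for 1B1 and 1.505 for 1B1 -cohesin, so that 1B1 -cohesin was 1.007 times 1B1, 1.002 times 1F4 and 0.905 times 1A2, and 1B1 was 0.995 times 1F4. The array domain of 1F4 was then at 0.752, and at 0.848 (interval below 1) without the ends. Against all bins that are not gene-dense, the gene-dense interval gave 1.05, 0.935, 1.02 and 1.16. Summed over the untreated libraries the gene-dense over gene-poor ratio was 1.19, and 1.16 to 1.22 with each left out in turn. Fisher's tests take reads without weights, so settings that change weights have a ratio but no p of their own. Between libraries this ratio was 1.23 for 1B1 -cohesin over 1F4 with bin pairs capped at 1 read (adjusted exact p = 0.0558), and for 1B1 -cohesin over 1B1 1.202 without the ends of the regions (adjusted exact p = 0.0412) and 1.19 without the busiest bins (adjusted exact p = 0.0476). Of 168 block pairs of about 0.25 Mb, 10, 4 and 11 were above 1 and 6, 5 and 3 below 1 in 1A2, 1F4 and 1B1. In 1B1 -cohesin, 9 were above 1 and 14 below 1. Of 56 shifted block pairs, 6 were below 1 in 1A2, 1 above 1 in 1F4 and 3 below 1 in 1B1. Capping gave 1 of 42 above 1 in 1F4. The background shares cover the 94 main interchromosomal block pairs, so the counts of 168 and 56 have none beside them. Start sites on both sides gave 1.87 in 1B1 -cohesin with equal weights (interval above 1). For the window classes in 1A2, mean balanced values gave 1.17 between positive windows and 1.58 for like over unlike sign, and classes from its own map gave 1.73 for like over unlike sign in 1B1 -cohesin. Windows of 32 kb gave 1.14 for like over unlike sign in 1F4 (interval above 1). Blocks 4 and 5 over 2 and 3 in 1F4 gave 1.53 for the gene-poor interval with mean balanced values and 1.26 (interval holds 1) for the gene-dense one without the ends. Between positive windows, 1B1 over 1A2 turned to 1.15 with mean balanced values, 1B1 -cohesin over 1A2 was 1.07 with weights from reads at 100 kb or more, 1B1 over 1F4 was 1.14 without the ends (adjusted exact p = 0.0315), and with windows of 32 kb 1B1 -cohesin over 1A2 was 1.08 (adjusted exact p = 0.102) and 1F4 over 1A2 was 0.872 (adjusted exact p = 0.0621). The cause of these shifts was not tested. No paired analysis was possible because each group had 1 library.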

Other observations

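A recurring bin pair was also seen between chromosomes 1 and X. The bin of Slc23a3 at chr1:75116801-75123200, which lies in the gene-dense interval, and an intergenic bin at chrX:7872001-7878400 shared 55 reads for 1A2, 49 for 1F4, 42 for 1B1 and 51 for 1B1 -cohesin, more than any chromosome 1 and 15 bin pair. With each bin pair capped at 1 read, the gene-dense over gene-poor ratio of chromosome 1 with X was 1.37, 1.21, 1.04 and 1.57 in the same order, against 1.76, 1.58, 1.27 and 1.85 without the cap.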
